A study of Mus musculus with 5 samples.

Results

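The adult haemoglobin genes were examined in the hippocampus of 3-month-old mice, as 4 globin genes (*Hba-a1*, *Hba-a2*, *Hbb-b1* and *Hbb-b2*) and *Alas2*, which encodes the erythroid enzyme that starts haem synthesis. These 5 genes, of 23361 gene symbols listed, were chosen by name with earlier results of these libraries known, and their FPKM in the comparison of genotypes counts as used for that choice. Their levels and genotype differences are therefore given as a description, and no test of them is read as a result. FPKM is a fragment count scaled to transcript length and sequencing depth, so levels can be set side by side between genes. Values are given in replicate order, controls first.

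The control group (n = 2), called WT in the sample titles, has the genotype label *Hdac1* f/f, that is floxed *Hdac1* with no Cre listed. The *Hdac1* cKO group was *Hdac1* f/f with *Nestin-Cre* (n = 3) and, by the study's account, lost the histone deacetylase HDAC1 from neurons and astrocytes. All mice were male by the study's methods, 3 months old by the sample titles, and each sample was hippocampal tissue. The study counts the replicates of each genotype as mice. The study describes perfusion for its histology. For the RNA samples, whether blood was washed from the vessels was not given in the sources used here.

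Haemoglobin is a tetramer of alpha and beta chains, each holding a haem group that binds oxygen. The adult mouse genome carries the alpha chain as a pair of near-identical genes and the beta chain as another pair. Reticulocytes, the youngest circulating red cells, still contain large amounts of globin mRNA and some *Alas2* mRNA, and tissue that holds blood brings these transcripts into its RNA. Globin transcripts have also been reported in neurons and glia, so a globin read in brain tissue does not name its cell. In bulk tissue, fewer cells of a type and less RNA per cell cannot be told apart.

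The alpha genes lie on the plus strand of chromosome 11, *Hba-a1* (ENSMUSG00000069919.6) from 32183511 to 32184465 and *Hba-a2* (ENSMUSG00000069917.6) from 32196489 to 32197301, with starts 13 kb apart (mm9, GENCODE vM1). The beta genes lie on the minus strand of chromosome 7, *Hbb-b2* (ENSMUSG00000073940.3) from 110961038 to 110962510 and *Hbb-b1* (ENSMUSG00000052305.5) from 110975048 to 110976610, 14.1 kb apart. *Alas2* (ENSMUSG00000025270.7) lies on the plus strand of chromosome X from 146981918 to 147005181. Of its 2403 exonic nt, 311 overlap exons of *Apex2* on the opposite strand, and whether counting used the strand was not given in the sources used here. All 5 genes encode proteins.

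The copies of each chain are nearly identical in coding sequence, which bears on every single-copy value below. The coding sequences of *Hba-a1* and *Hba-a2* are 429 nt long and differ at 1 base, C381T, counted from 1 at the A of the start codon with the base of *Hba-a1* first. Those of *Hbb-b1* and *Hbb-b2* are 444 nt long and differ at 1 base, C417T, with the base of *Hbb-b1* first. Neither change alters an amino acid. The stretches of coding sequence around these bases are shown 5′ to 3′ from GENCODE vM1 transcripts, positions 351 to 411 for alpha and 387 to 444 for beta, with the differing base in capitals.

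Hba-a1: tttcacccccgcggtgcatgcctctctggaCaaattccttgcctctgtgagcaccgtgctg
Hba-a2: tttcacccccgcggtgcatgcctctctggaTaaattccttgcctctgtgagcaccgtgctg
Hbb-b1: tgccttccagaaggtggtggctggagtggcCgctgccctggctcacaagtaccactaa
Hbb-b2: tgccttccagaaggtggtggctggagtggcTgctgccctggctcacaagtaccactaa

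Over the longest annotated transcripts, 86.9% of all 50-nt windows of *Hba-a2* (554 nt) occurred unchanged in *Hba-a1* (699 nt), and 67.5% the other way round. For the beta pair these shares were 58.3% of *Hbb-b2* (703 nt) and 52.3% of *Hbb-b1* (778 nt). No other protein-coding gene held such a window of the globin genes. For *Alas2* (2037 nt) 0 of 1988 windows occurred in another protein-coding gene. The gene models used by the authors may end elsewhere than those of GENCODE.

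The assignment of alpha-globin signal to a copy switched between libraries. *Hba-a1* was at 53.5 and 3.48 FPKM in control replicates 1 and 2 and at 0.0487, 13.7 and 0.391 FPKM in cKO replicates 1, 2 and 3. *Hba-a2* was at 0.653 and 32.1 FPKM in controls 1 and 2, against 38.5, 42.5 and 28.2 FPKM in the 3 cKO samples. Control 1 thus carried nearly all of its alpha signal on *Hba-a1*, and the other 4 libraries carried most of theirs on *Hba-a2*.

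The share of *Hba-a1* in the alpha sum was 98.8% and 9.79% in controls 1 and 2, against 0.126%, 24.5% and 1.37% in the 3 cKO samples. The 2 control libraries, which have the same genotype, lay further apart in this share than control 2 and any cKO library. On the log2(FPKM + 1) scale the genotype difference was −2.49 for *Hba-a1* and 2.32 for *Hba-a2*, where positive means higher in cKO. Within-group standard deviations were 2.26 and 1.78 on the same scale. Without control 1 the difference of *Hba-a2* was 0.16, and without control 2 it was 4.48. For *Hba-a1* these values were −0.69 and −4.29.

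**Figure D1:**
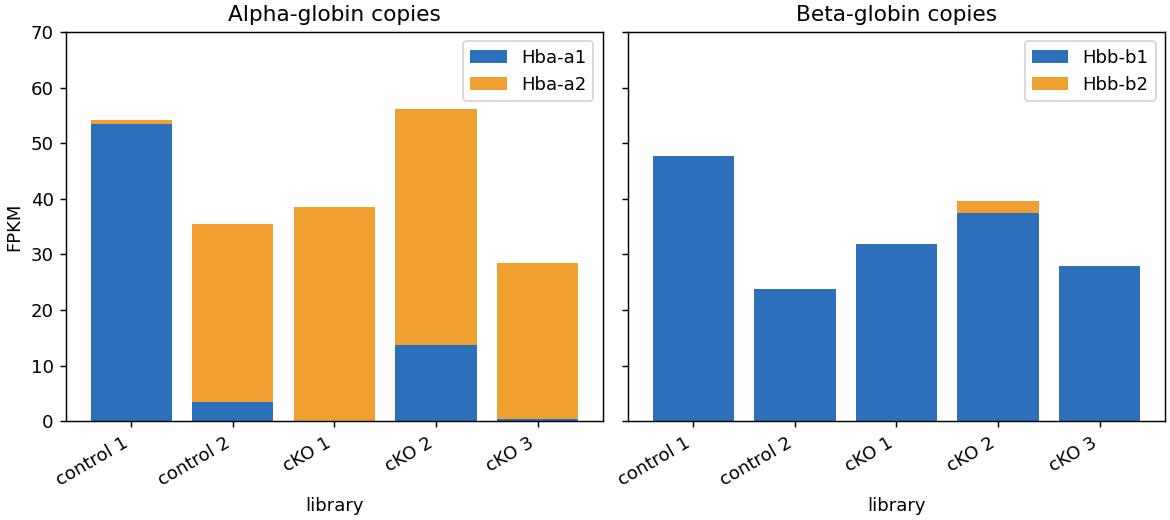
FPKM of the alpha-globin copies (left) and beta-globin copies (right) stacked for each of the 5 libraries, with 1 bar per library and no averaging. *Hba-a1* holds 98.8% of the alpha bar in control 1 and between 0.126% and 24.5% in the other libraries, while the beta bars are nearly all *Hbb-b1*.

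Beta-globin signal was placed almost entirely on *Hbb-b1*. It was at 47.8 and 23.8 FPKM in controls 1 and 2, against 31.9, 37.5 and 27.9 FPKM in the 3 cKO samples, and the control values enclosed all cKO values. *Hbb-b2* was listed at 0 and 0.000261 FPKM in controls 1 and 2, against 0, 2.24 and 0.000644 FPKM in the 3 cKO samples. Only cKO 2 placed more than 1% of its beta signal on *Hbb-b2*, with 5.65%.

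Some of these values are smaller than a single fragment could give. With depth estimated from the steps in low FPKM values, 1 fragment on *Hbb-b2* was worth 0.211 to 0.278 FPKM and on *Hba-a1* 0.212 to 0.279 FPKM. Of the 25 values of the 5 genes, 3 were above 0 and under the value of 1 fragment, namely *Hbb-b2* in control 2 and cKO 3 and *Hba-a1* in cKO 1. They correspond to 0.00121, 0.00287 and 0.23 fragments. They were not read as expression.

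Because of the copies, each chain was followed by the sum of its genes. The alpha sum was 54.2 and 35.5 FPKM in controls 1 and 2, against 38.6, 56.2 and 28.6 FPKM in the 3 cKO samples. Its means were 44.9 ± 13.2 FPKM (SD, n = 2) in control samples and 41.1 ± 14.0 FPKM (SD, n = 3) in cKO samples. The highest and the lowest library were both cKO, and the groups overlapped.

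The beta sum was 47.8 and 23.8 FPKM in controls 1 and 2, against 31.9, 39.7 and 27.9 FPKM in the 3 cKO samples. Its means were 35.8 ± 17.0 FPKM (SD, n = 2) in control samples and 33.2 ± 6.0 FPKM (SD, n = 3) in cKO samples. The highest and the lowest library were both controls. The genotype difference was −0.15 for the alpha sum and −0.04 for the beta sum on the log2(FPKM + 1) scale, against within-group standard deviations of 0.46 and 0.45. Both differences were smaller than the spread between replicates, while the highest library exceeded the lowest 1.97-fold for alpha and 2.01-fold for beta.

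**Figure D2:**
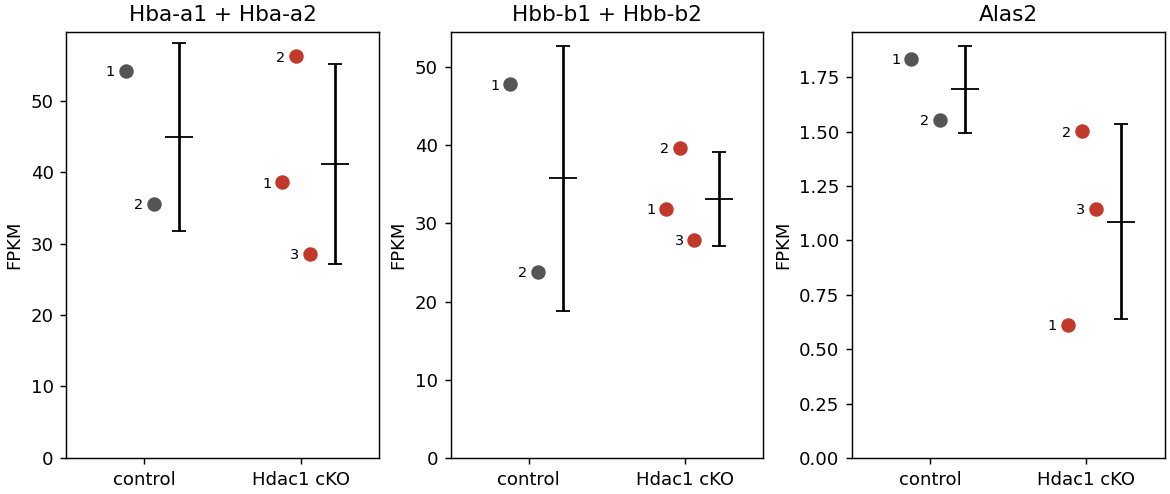
FPKM of the alpha sum, the beta sum and *Alas2* by genotype, with 1 numbered point per library and the mean ± SD beside the points (control n = 2, cKO n = 3). The groups overlap for both globin sums, and for *Alas2* the lowest control (1.55 FPKM) lies just above the highest cKO library (1.5 FPKM).

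The libraries fall into sets recognised by shared steps in their low FPKM values, control 1 with cKO 1 and control 2 with cKO 2 and cKO 3. In a pair from the same set 24.6% to 28.4% of low genes had almost the same FPKM ratio, and in a pair from different sets 3.71% to 4.64%. The labels do not say what the sets are. Within the first set the alpha and beta sums were lower in cKO, with differences of −0.48 and −0.57 on the log2(FPKM + 1) scale. Within the second set they were higher in cKO, by 0.17 and 0.47. The direction of both sums thus differed between the sets, which hold 1 control library each and allow no test within a set. Without control 1 the differences of the sums were 0.15 and 0.45, and without control 2 they were −0.44 and −0.53.

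**Figure D3:**
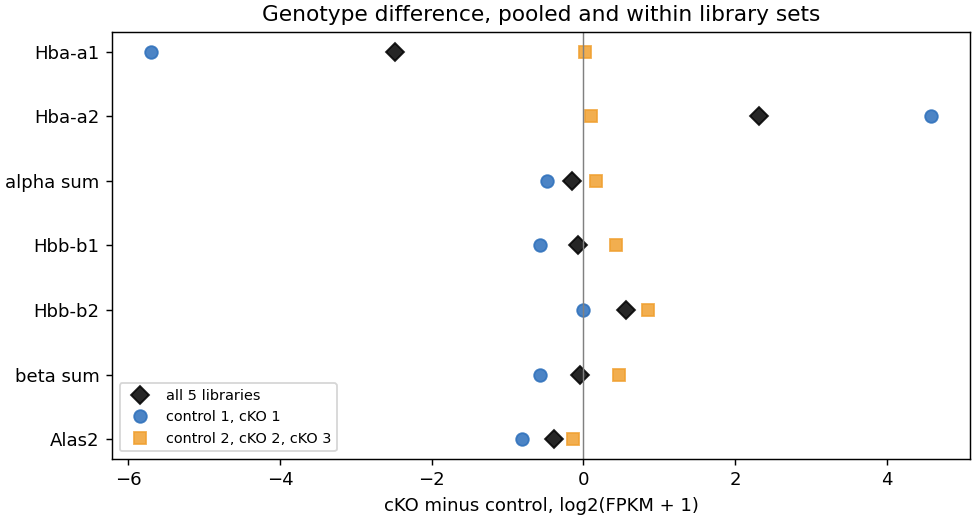
Difference between cKO and control in log2(FPKM + 1) for each gene and for the chain sums, over all 5 libraries (diamonds), within the set of control 1 and cKO 1 (circles) and within the set of control 2, cKO 2 and cKO 3 (squares). Single alpha copies reach −5.70 and 4.58 in the first set, while the alpha sum stays between −0.48 and 0.17.

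The largest alpha and beta sums fell in the same 2 libraries, control 1 and cKO 2. The alpha sum was 1.13 and 1.49 times the beta sum in controls 1 and 2, against 1.21, 1.42 and 1.02 times in the 3 cKO samples. The mean log2 ratio was 0.379 ± 0.281 (SD, n = 2) in control samples and 0.270 ± 0.234 (SD, n = 3) in the 3 cKO samples, a difference of −0.11 that is smaller than either spread. The order of the lower 3 libraries differed between the chains, with control 2 above cKO 3 for alpha and below it for beta.

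Globins were a small part of each library. Alpha and beta together made up 0.0175% and 0.0105% of the summed FPKM in controls 1 and 2, against 0.0111%, 0.0164% and 0.00969% in the 3 cKO samples. *Hbb-b1*, whose signal was least divided between copies, ranked between 1699 and 3448 among the 23361 symbols when ordered from the highest FPKM. By the estimated depth the alpha sum rested on 100 to 253 fragments per library and the beta sum on 122 to 249 fragments.

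*Alas2* encodes 5-aminolevulinate synthase 2, which joins glycine and succinyl-CoA in developing red cells. It was at 1.83 and 1.55 FPKM in controls 1 and 2, against 0.611, 1.5 and 1.15 FPKM in the 3 cKO samples. Both controls lay above all cKO libraries, but control 2 and cKO 2 differed by less than the 2 controls did. The means were 1.69 ± 0.198 FPKM (SD, n = 2) in control samples and 1.09 ± 0.448 FPKM (SD, n = 3), with a log2(FPKM + 1) difference of −0.39 and a within-group standard deviation of 0.27. The added 1 shrinks differences at such low levels, and with 0.1 added instead the difference was −0.67. The first set gave −0.82 and the second −0.14, and without cKO 1 the difference was −0.22. These values rested on an estimated 8 to 25 fragments per library, the fewest in cKO 1, so counting error is large.

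*Alas2* was the single gene of the 5 whose groups did not overlap, and 20.4% of the 12740 tested genes did not overlap either. It did not follow the globin sums in every library. *Alas2* equalled 1.80% and 2.62% of the summed globin FPKM in controls 1 and 2, against 0.866%, 1.56% and 2.03% in the 3 cKO samples. The lowest share belonged to cKO 1, which was in the middle of the range for both globin sums. *Apex2*, the gene on the opposite strand, was also lowest in cKO 1, at 0.721 FPKM against 1.06 to 1.29 FPKM in the other 4 libraries, and its part in the *Alas2* values was not tested.

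Of the 5 genes 4 passed the filter of a mean of at least 1 FPKM, and *Hbb-b2* did not. In the limma fit over all 12740 genes, 0 of these 4 passed an adjusted p of 0.05, where 0.00785% of all tested genes did. At the threshold stated in the study's methods, a fold change of 1.5 with an unadjusted p of 0.05, 1 of the 4 passed, where 0.659% of all tested genes did. That gene was *Hba-a2*, the copy at 0.653 FPKM in control 1, and the same gene was the 1 of 4 under an unadjusted p of 0.05, where 4.36% of all genes were. The comparison chose the members, so nothing is read from these counts.

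The deleted gene was checked in every library. *Hdac1* was at 8.95 and 13.1 FPKM in controls 1 and 2, against 1.95, 3.12 and 3.37 FPKM in the 3 cKO samples, in the direction of the labels (log2 difference −1.66, SE 0.22, limma adjusted p = 0.219, or 0.00389 with the library set as a block). Libraries held 565363 to 636705 FPKM in total, with an estimated depth of 5130000 to 6750000 fragments, lowest in cKO 2. All 11 genes of the hippocampal neuron list passed the filter, from the general neuronal gene *Snap25* at 749 to 903 FPKM to *Prox1* of the dentate gyrus at 14.0 to 16.4 FPKM, *Wfs1* of CA1 at 16.2 to 25.5 FPKM and *Dsp*, the lowest, at 3.47 to 4.68 FPKM. Without a block no gene of that list passed an adjusted or an unadjusted limma p of 0.05. Their median log2 difference was −0.143, with 2 above and 9 below 0, beside a median of 0.0146 over all tested genes. With the replicate block 5 of the 11 were lower at an unadjusted limma p of 0.05, where 11.2% of all tested genes passed.

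The regulatory sequences in front of these genes are shown as background on the 2 chains, whose genes lie on different chromosomes. Whether their motifs bear on the levels in these libraries was not tested. The 250 bases before the RefSeq start (GRCm38.p6) are printed 5′ to 3′ on the gene's strand for *Hba-a1* at chr11:32283422-32283671, plus strand, for *Hbb-bs* at chr7:103827929-103828178, minus strand, and for *Alas2* at chrX:150547167-150547416, plus strand. Capitals mark 4 short motifs on either strand. The GATA motif was searched as GATAA, the motif of factors such as KLF1 (KLF motif) as CACCC, the CCAAT box as those letters and the TATA motif as TATAA. RefSeq names the adult beta genes of the reference strain *Hbb-bs* and *Hbb-bt*. *Hbb-b1* and *Hbb-b2* had no promoter entry, and to which of the beta genes the name *Hbb-b1* was given in the authors' annotation was not given in the sources used here.

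Hba-a1: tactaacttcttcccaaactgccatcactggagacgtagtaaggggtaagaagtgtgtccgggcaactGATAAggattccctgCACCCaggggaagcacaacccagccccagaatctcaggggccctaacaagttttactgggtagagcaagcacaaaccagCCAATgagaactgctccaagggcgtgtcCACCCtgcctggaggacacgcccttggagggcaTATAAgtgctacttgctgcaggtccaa
Hbb-bs: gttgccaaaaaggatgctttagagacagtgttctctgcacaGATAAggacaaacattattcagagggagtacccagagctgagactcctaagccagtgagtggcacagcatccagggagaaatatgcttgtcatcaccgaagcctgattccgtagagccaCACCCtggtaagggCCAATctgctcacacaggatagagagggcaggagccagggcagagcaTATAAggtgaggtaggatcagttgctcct
Alas2: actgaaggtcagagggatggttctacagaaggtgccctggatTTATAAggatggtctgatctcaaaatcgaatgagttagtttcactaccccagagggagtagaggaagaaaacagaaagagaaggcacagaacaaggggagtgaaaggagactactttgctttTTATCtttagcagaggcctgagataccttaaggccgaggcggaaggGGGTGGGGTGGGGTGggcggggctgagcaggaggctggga

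The *Hba-a1* window held the GATA motif at −182, the KLF motif at −167 and −60, the CCAAT box at −88 and the TATA motif at −27, each given as the first base of the match relative to the start. In the *Hbb-bs* window the GATA motif was at −209, the KLF motif at −90, the CCAAT box at −76 and the TATA motif at −29. The *Alas2* window had no match to the CCAAT box. Its GATA motif at −86 and its KLF motifs at −40, −35 and −30 were on the reverse strand, and its TATA motifs at −208 and −207 overlap on opposite strands. Among 32851 RefSeq promoter windows of 250 bases, 22.6% held the GATA motif, 52.0% the KLF motif, 33.8% the CCAAT box and 22.8% the TATA motif, and 0.968% held all 4. The windows of *Hba-a1* and *Hba-a2* shared an identical run of 247 bases, whereas the longest identical run of *Hbb-bs* and *Hbb-bt* was 14 bases. The upstream sequence of the alpha copies therefore does not separate them either.

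Other members of the globin family were low or had roles outside red cells. The embryonic genes *Hba-x*, *Hbb-bh1* and *Hbb-bh2* were listed at 0 in all 5 libraries, and *Hbb-y* was listed at 0 in 4 and at 0.303 FPKM in control 1. The theta-like genes *Hbq1a* and *Hbq1b* lay between 0 and 1.14 FPKM, and *Mb*, which encodes myoglobin of muscle, between 0 and 0.418 FPKM. *Ngb*, encoding neuroglobin of neurons, was at 2.59 and 2.72 FPKM in controls 1 and 2, against 3.77, 3.00 and 3.68 FPKM in the 3 cKO samples, with a log2 difference of 0.29 (SE 0.14, limma adjusted p = 0.955). *Cygb*, encoding cytoglobin, was at 18.8 and 18.4 FPKM in controls 1 and 2, against 16.4, 14.8 and 16.5 FPKM in the 3 cKO samples, with a log2 difference of −0.22 (SE 0.11, limma adjusted p = 0.955). Of the 11 genes in this list 9 were found by name and 2 passed the filter. Without a block 0 passed an adjusted or an unadjusted limma p of 0.05. *Cygb* was lower at an unadjusted limma p of 0.0327 with the replicate block and 0.0465 with the library set block. In these fits 11.2% and 9.34% of all tested genes passed an unadjusted p of 0.05. Both tested genes had groups that did not overlap, with 20.4% of all tested genes as the background.

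Other genes of haem synthesis belong to the pathway that every cell uses for its own haem proteins. *Alas1*, the housekeeping counterpart of *Alas2*, was at 23.6 to 28.1 FPKM across the 5 libraries. Enzymes that follow were at 8.11 to 10.2 FPKM for *Alad*, 12.7 to 16.8 for *Uros*, 29.7 to 38.9 for *Urod*, 11.5 to 13.1 for *Cpox*, 4.0 to 5.32 for *Ppox* and 21.7 to 24.9 for *Fech*. The mitochondrial transport and membrane genes were at 13.5 to 16.2 FPKM for *Slc25a38*, 5.67 to 8.22 for *Abcb6*, 12.0 to 14.8 for *Abcb10* and 43.8 to 57.3 for *Tmem14c*. All 12 genes passed the filter, and 0 passed an adjusted limma p of 0.05 or an unadjusted p of 0.05. Their median log2 difference was 0.055, with 9 above and 3 below 0, beside a median of 0.0146 over all tested genes. After rescaling all libraries to a common total the 2 medians were −0.00835 and −0.0469.

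The red cell list holds 35 genes, of which 34 were found by name and 13 passed the filter. Several genes with high levels in the list are also expressed by brain cells, such as *Bnip3l* (73.1 to 88.8 FPKM), *Dmtn* (listed as *Epb4.9*, 47.1 to 55.9 FPKM) and *Tfrc* (38.2 to 52.0 FPKM). Of the 13 tested genes 0 passed an adjusted limma p of 0.05 or an unadjusted p of 0.05, with a median log2 difference of −0.0533, 6 above and 7 below 0. Groups did not overlap in 5 of the 13, where 20.4% of all tested genes did not.

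Some genes of the red cell list, named after their values were seen, were at or near 0 throughout, and others were not. *Gata1*, *Nfe2*, *Rhag*, *Kel*, *Trim58* and *Cldn13* were listed at 0 in all 5 libraries. *Slc4a1*, the anion exchanger of the red cell membrane, lay between 0 and 0.179 FPKM. The erythroid factor *Klf1* lay between 0 and 0.397 FPKM. By contrast *Epor*, the erythropoietin receptor gene, was at 1.35 to 2.18 FPKM, *Icam4* at 0.794 to 1.84 FPKM, and the membrane skeleton genes *Ank1* and *Sptb* at 4.99 to 5.99 and 29.4 to 33.6 FPKM. The 21 genes of the list with a mean under 1 FPKM, a subset taken after the values were seen, summed to 4.35 and 2.54 FPKM in controls 1 and 2, against 3.14, 3.54 and 2.06 FPKM in the 3 cKO samples. *Gypc*, *Isg20*, *Tal1* and *Aqp1* made up most of this sum in every library, and *Aqp1* is also in the choroid plexus list.

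Markers of white blood cells were low, while the platelet list held a gene with higher levels. Of 13 neutrophil, 11 lymphocyte and 6 circulating monocyte genes found by name (of 13, 12 and 6 listed) none reached a mean of 1 FPKM, so none was tested. Their summed FPKM was 2.91 and 6.10 in controls 1 and 2, against 3.34, 2.75 and 1.95 in the 3 cKO samples for neutrophils, with a maximum of 1.77 for lymphocytes and 1.43 for monocytes in any library. The highest genes were *S100a8* and *S100a9* (0 to 1.71 FPKM), *Csf3r* (0.476 to 1.47 FPKM), *Lck* (0.522 to 1.26 FPKM) and *F13a1* (0.666 to 1.27 FPKM). Of 12 platelet genes 2 were tested, *Gp1bb* (6.07 to 20.9 FPKM) and *Pf4* (0.778 to 1.95 FPKM), and neither passed an adjusted or an unadjusted p. The platelet sum was 24.5 and 10.8 FPKM in controls 1 and 2, against 24.1, 11.9 and 14.1 FPKM in the 3 cKO samples. It consisted mostly of *Gp1bb*, and like that gene it was high in control 1 and cKO 1, unlike the globin sums. *Pf4* was at 1.95 and 1.31 FPKM in controls 1 and 2, against 0.778, 1.69 and 1.38 FPKM in the 3 cKO samples. It was thus highest in control 1 and cKO 2, where the globin sums were also highest. The part of platelets in the globin values was not tested.

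Vessel genes address whether libraries with more globin also held more vessel transcript. The 16 endothelial genes summed to 136 and 139 FPKM in controls 1 and 2, against 113, 117 and 154 FPKM in the 3 cKO samples. cKO 3 had the highest endothelial sum and the lowest alpha sum, and cKO 2 had a low endothelial sum with the highest alpha sum. The beta sum was highest in control 1 and lowest in control 2, whose endothelial sums were 136 and 139 FPKM. The part of vessel content in the globin values was not tested. The highest of these genes were *Cldn5* (19.7 to 32.4 FPKM), *Ly6c1* (20.8 to 27.2 FPKM), *Slc2a1* (18.8 to 25.3 FPKM) and *Slco1a4* (10.7 to 17.1 FPKM). Of the 16 genes 0 passed an adjusted limma p of 0.05, and 1, the glucose transporter gene *Slc2a1*, was lower at an unadjusted p of 0.0413 (log2 difference −0.27, adjusted p = 0.955), where 4.36% of all tested genes passed an unadjusted p of 0.05. The 11 mural genes, of pericytes and smooth muscle, summed to 82.5 to 97.0 FPKM, and 0 of the 9 tested passed either p. With the library set as a block, 2 of the 16 endothelial genes were lower and 1 of the 9 mural genes was higher at an unadjusted p of 0.05, where 9.34% of all tested genes passed. The replicate block gave 7 lower endothelial genes and 0 mural genes at that p, where 11.2% of all tested genes passed.

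The summed FPKM of the choroid plexus list differed far more between libraries than the sums of the vessel lists, though not every gene of the list did. *Ttr*, the transthyretin gene that marks choroid plexus epithelium, was at 157 and 1.33 FPKM in controls 1 and 2, against 67.9, 589 and 20.7 FPKM in the 3 cKO samples. The sum of the 10 genes was 223 and 51.3 FPKM in controls 1 and 2, against 119, 685 and 78.5 FPKM in the 3 cKO samples, so the libraries with the most choroid plexus transcript, cKO 2 and control 1, also had the largest globin sums. In both of them *Ttr* made up most of the choroid plexus sum. *Enpp2*, the next highest gene of the list, was at 54.4 and 44.0 FPKM in controls 1 and 2, against 43.0, 78.4 and 52.6 FPKM in cKO 1 to 3. The part of choroid plexus tissue in the globin values was not tested. Of the 6 tested genes 0 passed an adjusted or an unadjusted limma p of 0.05.

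**Figure D4:**
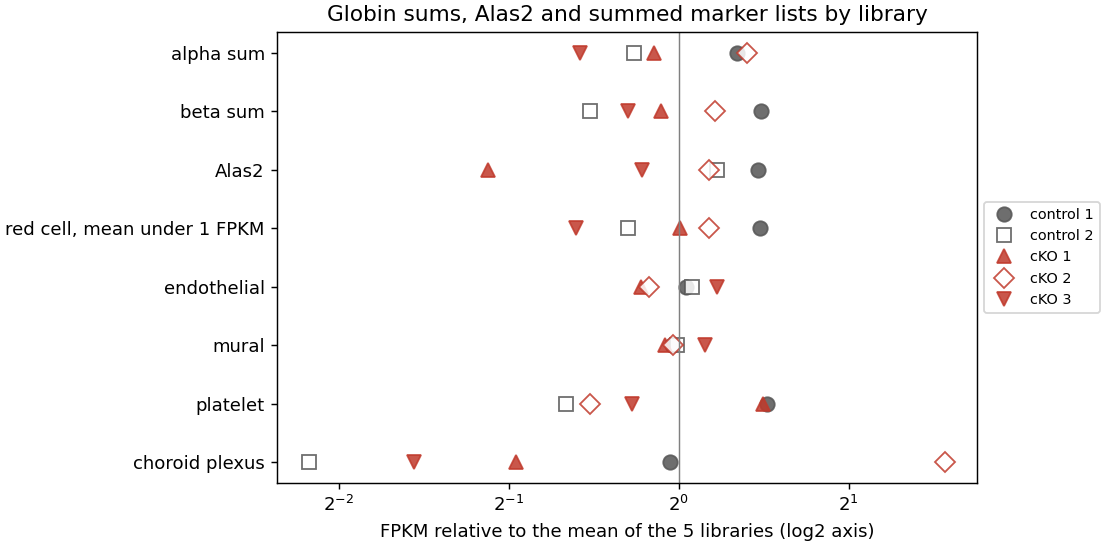
Summed FPKM of the globin chains, *Alas2* and marker lists in each library, divided by the mean of the 5 libraries, on a log2 axis with 1 symbol per library (grey control, red cKO). Globin sums span 0.67 to 1.40 of their mean, endothelial and mural sums 0.857 to 1.17, and the choroid plexus sum 0.222 to 2.96.

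The tested genes whose levels followed the globins most closely were found by the root mean square difference between profiles. Each profile was the gene's log2(FPKM + 1) in the 5 libraries minus its own mean, compared with that of the mean of both globin sums, a description over 5 libraries. The 8 closest genes were *Gm16062* (0.0745), *Gm11744* (0.0786), *Cartpt* (0.111), *Shb* (0.133), *Aven* (0.133), *4930432K21Rik* (0.138), *Kl* (0.142) and *Lst1* (0.142). The median over the 12736 genes compared was 0.375, the globin profile itself had a root mean square size of 0.341, and 51 genes lay within 0.2. *Kl*, the klotho gene, was at 5.71 and 3.77 FPKM in controls 1 and 2, against 4.26, 5.40 and 3.88 FPKM in the 3 cKO samples and belongs to the choroid plexus list.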

How the data were processed

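Hippocampal RNA of 2 control and 3 *Hdac1* cKO samples, grouped by genotype label and title, was sequenced after TruSeq library preparation. Collapsed reads, a step whose effect on globins was not tested, were aligned to mm9 with TopHat and quantified with Cufflinks 2.0.0 against the UCSC gene annotation, and the authors deposited FPKM per gene symbol. FPKM are not counts, so no count test was used, and how Cufflinks divided reads between gene copies was not given in the sources used here.

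The 12740 genes averaging 1 FPKM or more were tested with limma 3.58.1 in R 4.3.3 (mean-variance trend, two-sided) on log2(FPKM + 1), fitting genotype alone. P-values were adjusted by Benjamini-Hochberg over all tested genes. The scale understates changes of low genes. The test was checked on simulated data. Chain sums were formed on FPKM before taking logs. Depth per library was estimated from the most common product of low FPKM and transcript length in genes with 1 transcript of at least 1000 nt, and is approximate. It rested on 30 and 38 genes in control 1 and cKO 1 and on 73 to 77 genes in the others, so it is less certain in that first set. Sets of libraries were those sharing over 10% of low genes (mean under 0.3 FPKM) within a ratio window of 0.05 log2 units.

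The members and all lists were chosen with earlier results of these data known. Named genes were the members, *Hdac1*, the globin family and haem synthesis lists, up to 4 of the highest genes in other lists, and the 8 nearest profiles. Any further gene was named after its values were seen, and a few listed genes are counted but not reported here by name. Coordinates and coding sequences came from GENCODE vM1 (NCBIM37, the build of mm9), and promoters from RefSeq (GRCm38.p6), where 3 of the 5 members had an entry. Alternatives were another pseudocount, filter, scaling or variance model, a block for replicate number or library set, and leaving out each library.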

Additional observations from a re-analysis of the deposited data

How the results depend on the processing

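The genotype difference of the globin sums changed with single libraries, most when a control was left out. Without cKO 3 it was 0.08 for alpha and 0.07 for beta, so the sign also changed with both controls kept. Leaving out each library in turn moved the beta sum difference from −0.04 to between −0.53 and 0.45 on the log2 scale, the alpha sum from −0.15 to between −0.44 and 0.15, and the log2 ratio of the chains from −0.11 to between −0.31 and 0.09. The sign changed in 3 of 10 alternatives for the alpha sum, in 4 of 10 for the beta sum and in 3 of 7 for the ratio. Alternatives other than leaving out a library moved these 3 values by less than the replicate spread. So did leaving out any library for the alpha sum and the ratio. Leaving out either control moved the beta sum by more than that spread. Labels share replicate numbers, and same-numbered libraries deviated together from their group means (r = 0.402 and 0.269 across genes, which are not independent), but only 2 pairs exist and each lies inside a library set. With the replicate block 14 genes in place of 1 passed the adjusted p and 133 in place of 84 passed the fold change with p. With the library set block 5 passed the adjusted p. At a fold change of 1.5 the count was 142 with a pseudocount of 0.1, 43 with a minimum mean of 5 FPKM and 166 after rescaling to a common total, where 68 were higher in cKO, against 51 of 84. Leaving out 1 library gave 1 to 5 genes at the adjusted p and 92 to 234 at the fold change. A pseudocount of 0.1 moved *Alas2* to −0.67 and *Hbb-b2* to 1.52. The cause of these shifts was not tested. *Hdac1* had an adjusted limma p of 0.219 without a block and 0.0115 with the replicate block. No list gained a gene past the adjusted p under either block. At an unadjusted p of 0.05 the replicate block, in which cKO 3 has no partner, gave 7 lower endothelial genes of 16 in place of 1 and 5 lower hippocampal neuron genes of 11 in place of 0, where 11.2% of all tested genes passed in place of 4.36%. In each other list at most 1 gene passed it under either block. These were *Cygb*, lower under both, *Hmox1*, lower with the replicate block, and *Tfrc*, *Tmem14c* and *Kcnj8*, higher with the library set block. Depth limits *Alas2*, *Hbb-b2* and the lower values of both alpha copies, and no read totals were used, so no counting intervals are given.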

Other observations

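Genes that handle haem and haemoglobin after red cells break down were present in the hippocampus without a genotype difference past the test. Of 14 such genes 12 were found by name and 9 were tested, and 0 passed an adjusted or an unadjusted limma p of 0.05. The ferritin genes, whose proteins store iron, were highest, with *Fth1* at 936 to 1280 FPKM and *Ftl1* at 409 to 504 FPKM. *Hmox2*, the constitutive haem oxygenase, was at 36.7 to 53.1 FPKM and *Slc48a1*, a haem transporter, at 30.4 to 35.5 FPKM. *Hmox1*, the inducible haem oxygenase, was at 3.29 and 2.09 FPKM in controls 1 and 2, against 1.71, 1.67 and 3.47 FPKM in the 3 cKO samples. *Hp*, *Hpx* and *Cd163*, which bind free haemoglobin or haem, stayed under 1 FPKM in every library. The median log2 difference of the tested genes was −0.067, beside 0.0146 over all tested genes.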
